A study of Mus musculus with 16 samples.

Results

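The mitochondrial respiratory chain genes were taken as every gene of the deposited RNA-seq tables whose symbol starts with Nduf, Uqcr, Cox4, Cox5, Cox6, Cox7, Cox8 or Atp5, or is *Sdha*, *Sdhb*, *Sdhc* or *Sdhd*. This rule, which uses names and no measured value, gave 90 of the 19338 genes with a symbol, and each of the 90 had 1 entry. Nuclear RNA depleted of rRNA was sequenced from mouse embryonic stem cells (ESCs) in 16 libraries, with 4 replicates in each of 4 groups. Wild-type cells were the untreated Ring1a-/-;Ring1bfl/fl line, and PRC1-null cells were the same line after 72 h in 800 nM 4-hydroxytamoxifen, which removes RING1B, the remaining catalytic subunit of Polycomb repressive complex 1 (PRC1). PRC2-null cells were the untreated Eed-/-;Ring1a-/-;Ring1bfl/fl line (PcG DKO), which lacks the EED subunit of PRC2, and PRC1/2-null cells were that line after the same treatment. All 4 groups therefore lack RING1A, and the 2 groups without *Eed* come from 1 clone, B4. The passages were 25 to 35 for the first line and 30 to 40 for the PcG DKO line. The cells were grown on gelatin in serum with leukemia inhibitory factor.

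The value used here is the authors' mean normalized count of a gene over all 16 libraries, from here on its level. It is 1 pooled value, with no error and no split by group, and the depth of the libraries is unknown. The levels therefore describe these ESC cultures as a whole, and the effect of losing PRC1, PRC2 or both on the respiratory chain genes was not analysed here. In bulk RNA, fewer cells of a type and less RNA per cell cannot be told apart. The pooled level can be set against 1 label only, the deletion that all groups share. *Ring1*, the gene of RING1A, had a level of 19.0 (9.34 per kb of transcript), below the median of all genes, while *Rnf2*, the gene of RING1B, and *Eed* stood at 1015 and 1317 per kb of transcript in the mean over cells with and without them. All 11 ESC markers found, of 12 listed, had levels of at least 100, from 463 per kb of transcript for *Utf1* to 1851 for *Tdgf1*, with the pluripotency factor *Pou5f1* at 1016. Markers of other cell types were also present in the pooled RNA. The 6 primitive endoderm markers ranged from 75.5 per kb of transcript for *Foxa2* to 1398 for *Gata4*, and the 6 trophoblast markers from 12.7 for *Elf5* to 407 for *Krt19*. Of 10 fibroblast markers 3 had a level of at least 100, *Vim*, *Pdgfrb* and *Thy1*. The 10 ranged from 0.116 per kb of transcript for *Lum* to 140 for *Vim*, with a median of 10.9 and *Dcn* at 0.631. The part of these cells in the levels below was not tested.

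The respiratory chain passes electrons from NADH and succinate to oxygen in the inner mitochondrial membrane and pumps protons across it, and ATP synthase uses the return of these protons to make ATP. Complex I takes electrons from NADH, complex II from succinate, complex III hands them from ubiquinone to cytochrome c, complex IV reduces oxygen with them, and ATP synthase is also known as complex V. Most subunits are encoded in the nucleus and are measured here, while a small set of catalytic subunits is encoded in the mitochondrial genome. ESCs rely heavily on glycolysis and also respire. None of the 13 protein genes of the mitochondrial genome had an entry, so they were not analysed here.

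The sequences that bear on the genes are those before their start sites, shown for 2 pairs of alternative subunits of complex IV whose levels lie far apart. Promoter windows of RefSeq (GRCm38.p6, 250 bases before to 50 after the start) were matched for 73 of the 90 genes. The 250 bases before the start are given in the direction of the gene, 5′ to 3′, with every CG dinucleotide (CpG) in capitals. The first pair is *Cox8a* (chr19:7217617-7217866, minus strand), the subunit 8 form of most tissues, and *Cox8b* (chr7:140900447-140900696, minus strand), the form of heart and skeletal muscle. The other pair is *Cox7a2* (chr9:79759854-79760103, minus strand), the widely used form of subunit 7a, whose gene in RefSeq reaches further upstream than the start shown, and *Cox7a1* (chr7:30183921-30184170, plus strand), its heart and muscle form.
Cox8a: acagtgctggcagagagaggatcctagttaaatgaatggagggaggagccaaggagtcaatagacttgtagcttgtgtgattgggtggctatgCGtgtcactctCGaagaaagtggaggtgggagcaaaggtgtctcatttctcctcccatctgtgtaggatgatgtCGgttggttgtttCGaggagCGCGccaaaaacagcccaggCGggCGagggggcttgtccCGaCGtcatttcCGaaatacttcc
Cox8b: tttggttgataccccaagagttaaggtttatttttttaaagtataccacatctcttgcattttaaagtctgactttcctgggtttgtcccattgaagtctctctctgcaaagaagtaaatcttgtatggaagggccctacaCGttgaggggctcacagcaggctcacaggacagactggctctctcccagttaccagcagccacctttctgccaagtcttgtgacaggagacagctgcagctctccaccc
Cox7a2: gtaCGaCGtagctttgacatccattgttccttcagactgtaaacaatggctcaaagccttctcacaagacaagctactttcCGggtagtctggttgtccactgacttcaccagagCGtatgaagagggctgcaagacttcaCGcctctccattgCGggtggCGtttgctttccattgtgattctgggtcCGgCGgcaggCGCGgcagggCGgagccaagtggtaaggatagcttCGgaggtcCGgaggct
Cox7a1: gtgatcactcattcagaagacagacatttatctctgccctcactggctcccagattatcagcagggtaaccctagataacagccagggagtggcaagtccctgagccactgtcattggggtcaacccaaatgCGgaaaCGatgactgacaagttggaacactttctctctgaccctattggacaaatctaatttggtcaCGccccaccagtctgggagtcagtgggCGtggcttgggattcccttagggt
The *Cox8a* stretch held 11 CpGs and that of *Cox8b* 1. In the other pair the stretch before *Cox7a2* held 14 and that before *Cox7a1* held 4. These pairs do not stand for all families of complex IV. Counted with the 50 bases after the start, the windows of *Cox6b1* and *Cox6b2* held 17 and 10 CpGs. *Cox7b* went the other way, with 5 against 10 for *Cox7b2*, the form with the lower level.

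Respiratory chain genes stood high in the nuclear RNA per kb of transcript, and less so with no division by length. Of the 90 genes, 82 (91.1%) had a level of at least 100, against 57.6% of all genes, and 87 (96.7%) had at least 10, against 74.9%. A level of at least 1000 was reached by 23 of them (25.6%), close to the 22.7% of all genes. The genes are short, so levels between genes were compared per kb of transcript, the spliced length of the RefSeq transcript of the entry. On this scale the median of the 90 genes was 663, with a middle range (quartiles) of 399.9 to 1090.2, against 75.03 for all genes. Above the median of all genes were 84 of the 90, 75 were among the highest 25%, and 43 were among the highest 10%. Their median percentile was 88.8, and 66.1 with no division by length. Together the 90 genes, 0.465% of all genes with a symbol, held 0.441% of the sum of their levels.

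**Figure D1:**
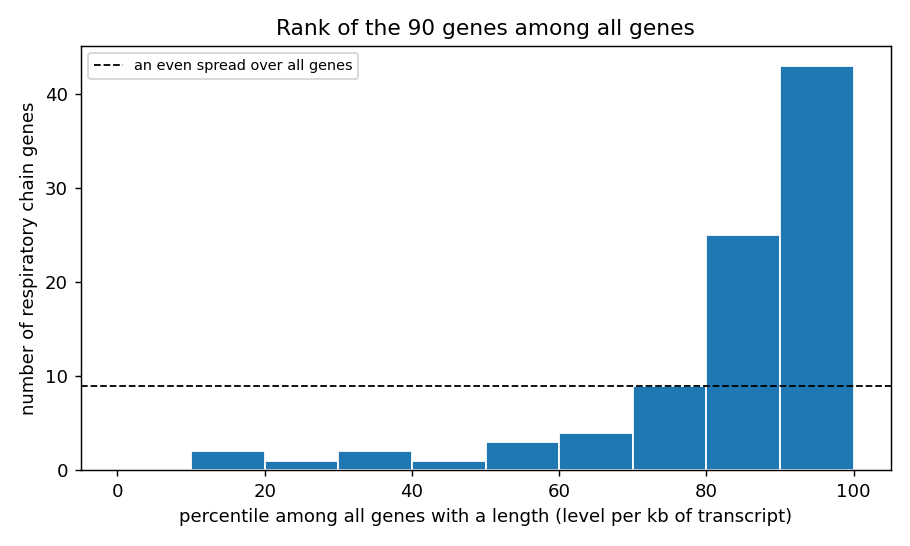
Number of respiratory chain genes (vertical axis) by percentile among all genes with a transcript length (horizontal axis, level per kb of transcript, bins of 10), with a dashed line at the height that an even spread over all genes would give. The last bin holds 43 of the 90 genes, and the median percentile is 88.8.

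Whether reads in introns were counted is not given in the sources used here, and nuclear RNA holds unspliced transcripts, so a gene with long introns can collect more reads for the same transcript length. Among the 90 genes the level correlated with the span of the gene from start to end (Spearman's rho 0.51) as well as with transcript length (rho 0.46), and the level per kb of transcript still did with the span (rho 0.26). These are descriptions across genes, which share the same libraries. The 3 genes with spans over 100 kb were *Ndufs4*, *Ndufaf2* and *Cox7b2*. Of all 90 genes *Atp5b* and *Cox4i1* alone exceeded *Ndufaf2* per kb of transcript (2868), which had 18.3 per kb of span, below the median of 73.7 on that scale. Orders given below are per kb of transcript unless stated, and many of them differ per kb of span, which is given for the main ones. The span is that of the whole gene with all its RefSeq transcripts, and for 3 of the 90 genes the transcript of the entry itself covers less than 0.5 of it.

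**Figure D2:**
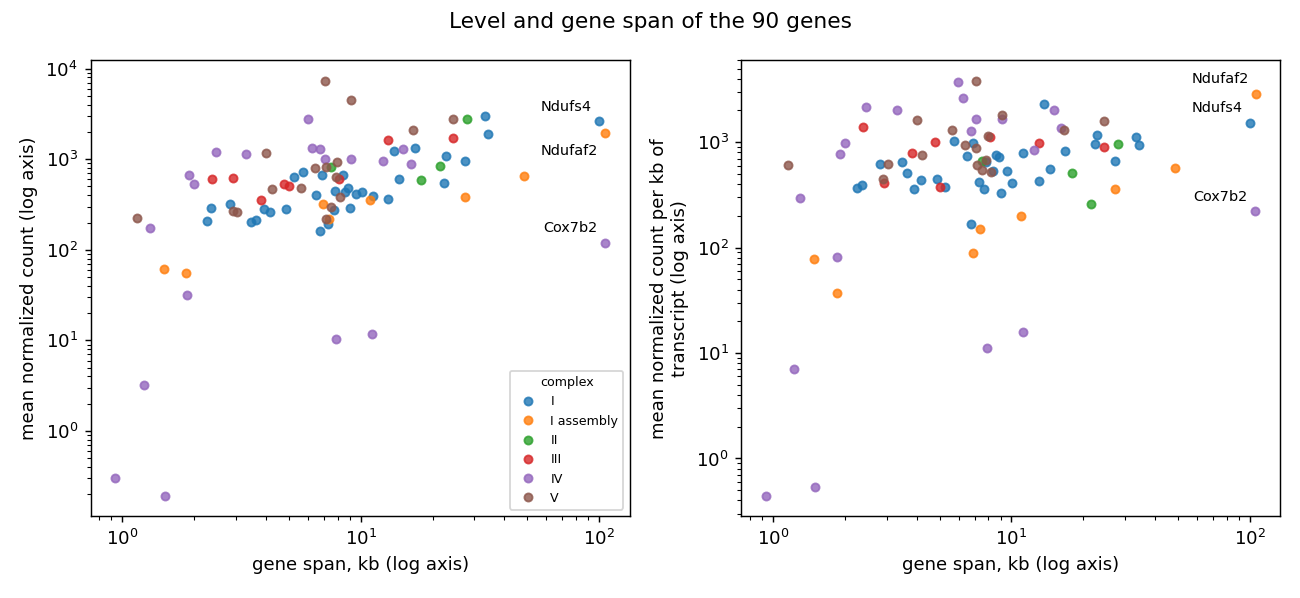
Span of each gene in kb (horizontal axes, log scale) against its level (left) and its level per kb of transcript (right, both on log axes), 1 point per gene, coloured by complex. *Ndufs4*, *Ndufaf2* and *Cox7b2*, with spans over 100 kb, lie at the right edge, with 1537, 2868 and 220.3 per kb of transcript.

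Complex I, the NADH dehydrogenase, was present with 33 subunit genes, and all 33 had levels of at least 100. Another 4 subunit genes, *Ndufs5*, *Ndufab1*, *Ndufb1* and *Ndufb11*, had no entry under these symbols, so the set is not complete. Their median was 620.5 per kb of transcript, and 30 of the 33 lay within 2-fold of it. The 7 core subunits, which carry out the electron transfer of the enzyme, had a median of 414.5 per kb of transcript, below the 633.0 of the 26 supernumerary subunits. Per kb of span the order was the other way, with 72.3 for the core and 56.6 for the supernumerary subunits. *Ndufv2* and *Ndufs1* were the highest core subunits at 1181 and 1128 per kb of transcript. Lower core subunits lay in a narrow band, with *Ndufs3* at 414.5, the flavin- and NADH-binding *Ndufv1* at 378, *Ndufs8* at 363 and *Ndufs7* at 358 per kb of transcript. Of the supernumerary subunits, *Ndufa7* was highest at 2305 per kb of transcript and *Ndufs4*, whose loss gives a well-studied mouse model of Leigh syndrome, followed at 1537. *Ndufs4* (chromosome 13, 114287795 to 114388094 of mm10) had only 26.0 per kb of its long span, among the low values of the complex. *Ndufb4* was lowest at 167.5 per kb of transcript and *Ndufa5* next at 329.9. Of the 80-base stretches of the *Ndufb4* transcript, the length of a read, 34.9% also occur in transcripts of 2 genes elsewhere, so its reads may be divided among copies.

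The assembly factors of complex I, which help to build the enzyme and are not part of it, were lower than the subunits. The 8 genes named Ndufaf had a median of 175.8 per kb of transcript, and 29.8 per kb of span against 57.4 for the subunits. With no division by length the medians were closer, at 337 and 432. *Ndufaf2* at 2868, *Ndufaf5* at 563.7 and *Ndufaf6* at 356.1 per kb of transcript were the highest, and all 3 were low per kb of span, from 13.6 to 18.3. The lowest were *Ndufaf3* at 37.2 and *Ndufaf8* at 78.0 per kb of transcript, and they were also the only 2 of the 8 with levels under 100, at 55.4 and 60.9. *Ndufaf3* (chromosome 9, 108565587 to 108567436 of mm10) overlaps *Impdh2* on the opposite strand, and the use of strand in the counting is not given in the sources used here. The 8 other complex I assembly factors found, of 9 listed, ranged from 45.2 per kb of transcript for *Tmem126b* to 624 for *Nubpl*, with a median of 207. *Timmdc1* at 500.7 and *Tmem126a* at 294 followed *Nubpl*, and the next to lowest was *Tmem186* at 86.7 per kb of transcript. Per kb of span *Nubpl* was the lowest of these 8 (8.74) and *Tmem186* the highest (73.8).

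Complex II, succinate dehydrogenase, has 4 subunits and is also an enzyme of the TCA cycle. *Sdha*, the flavoprotein, stood at 964 per kb of transcript, *Sdhd*, a membrane anchor, at 666, *Sdhb*, the iron-sulfur subunit, at 511 and *Sdhc*, the other anchor, at 262. Per kb of span the order changed, with *Sdhd* at 109, *Sdha* at 99.9, *Sdhc* at 38.7 and *Sdhb* at 32.6. The subunits spanned a 3.68-fold range per kb of transcript.

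Complex III, the cytochrome bc1 complex, had 8 genes within a 3.73-fold range, and a median of 943 per kb of transcript. *Uqcr10*, *Uqcrh* and *Uqcrb*, small supernumerary subunits, were highest at 1389, 1112 and 1002 per kb of transcript. The core proteins *Uqcrc1* and *Uqcrc2* were close to each other at 986.5 and 899.8. *Uqcrfs1*, which encodes the Rieske iron-sulfur protein, was the lowest at 373, and *Uqcrq* was next at 409.9. Per kb of span *Uqcrfs1* (101.5) stood above *Uqcrc2* (70.1), which was the lowest of the 8. *Uqcrq* is an example of the effect of length, since per kb of span it stood at 214, second of the 8 genes. Its haem-bearing partner cytochrome c1, encoded by *Cyc1*, which the naming rule does not take in, was at 677 per kb of transcript.

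Complex IV, cytochrome c oxidase, had the widest range of levels of the complexes. Its highest genes were *Cox4i1* at 3732, *Cox6c* at 2611 and *Cox8a* at 2173 per kb of transcript, and its lowest were *Cox6a2* at 0.445 and *Cox8b* at 0.539. Per kb of span *Cox8a* (486) stood above *Cox4i1* (464.5), and *Cox8b* below *Cox6a2*. *Cox4i1* encodes the widely used form of subunit 4, and *Cox6c* and *Cox8a* encode small membrane subunits. Of the 20 genes, 14 had a level of at least 100. The 12 genes that encode subunits with no alternative, the widely used form of a subunit or *Cox7a2l* had a median of 1653 per kb of transcript, from 766 for *Cox5b* to 3732 for *Cox4i1*. The 8 alternative forms, known from muscle, lung, testis or hypoxic cells, had a median of 13.5 per kb of transcript, and 6 of them had levels under 100. This division was made from what the forms are known for, with the levels already seen, and is a description.

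**Figure D3:**
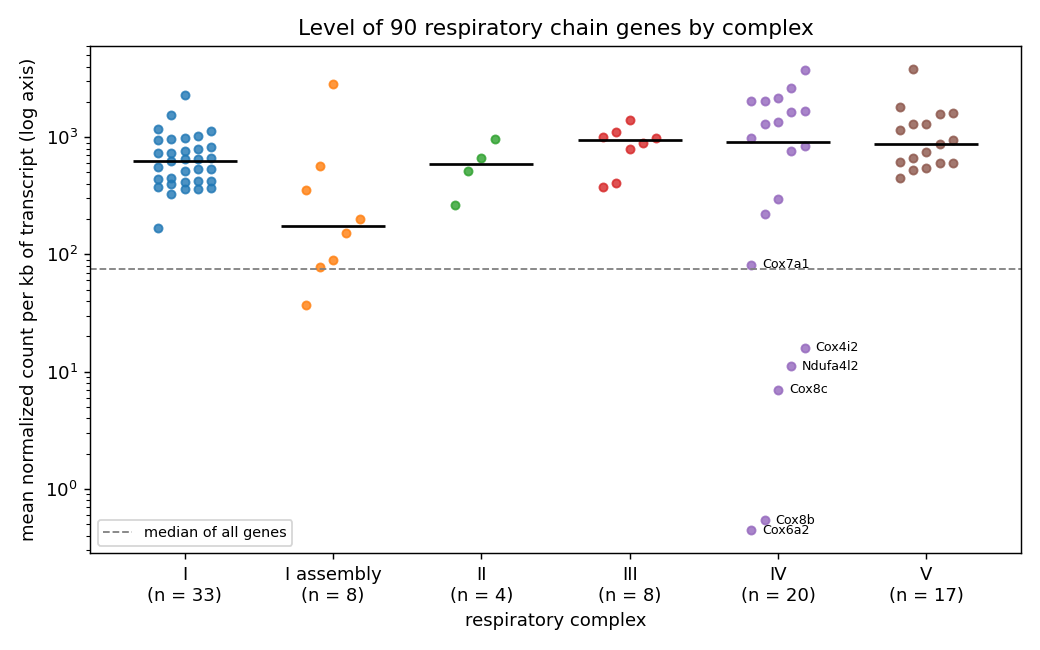
Level per kb of transcript (vertical axis, log scale) of each of the 90 genes by complex, 1 point per gene, with a bar at the median of each group and a dashed line at the median of all genes (75.03). Complexes I, II, III and V lie wholly above that line, while 5 complex IV genes, all alternative forms, and the assembly factor *Ndufaf3* lie below it.

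The alternative subunits of complex IV were compared family by family. In subunit 4, *Cox4i1* had a level of 2780.04 and *Cox4i2*, a form of lung and of cells short of oxygen, 11.6, a ratio of 233 per kb of transcript. In subunit 6a, *Cox6a1*, the form of most tissues, stood at 2021 per kb of transcript, while *Cox6a2*, the heart and muscle form, had a level of 0.303. In subunit 8, *Cox8a* had a level of 1195, *Cox8c*, a testis form, 3.21 and *Cox8b* 0.194, and *Cox8a* was 309.7-fold above *Cox8c* per kb of transcript. With mean levels under 1, *Cox6a2* and *Cox8b* were close to absent in these libraries, and no ratio is given for them. *Ndufa4*, now counted as a complex IV subunit, stood 149.8-fold above *Ndufa4l2*, its hypoxia-induced relative, which had a level of 10.4. In these 4 families 1 form held nearly all the RNA.

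Other families were less one-sided. *Cox7a1* had a level of 32.0, and *Cox7a2* was 16.6-fold above it per kb of transcript, 3.20-fold per kb of gene span and 11.6-fold per kb of the span of the entry's own transcript. *Cox7a2l*, which takes part in supercomplexes of complexes III and IV, stood at 838 per kb of transcript against 1350.3 for *Cox7a2*, and its level was the higher of the pair with no division by length (946 against 889.9). Per kb of gene span *Cox7a2l* was also higher (76.2 against 55.0), but per kb of the span of the entry's own transcript it was lower (76.3 against 197), since the *Cox7a2* gene in RefSeq is far longer than its entry. *Cox6b2*, a testis form, was at 298 per kb of transcript against 1644 for *Cox6b1*, a ratio of 5.52, yet it was the higher of the pair per kb of span (133.8 against 111.1). *Cox7b2*, another testis form, was at 220.3 per kb of transcript against 1285 for *Cox7b*, a ratio of 5.83 that was 168 per kb of span, since *Cox7b2* (chromosome 5, 71442823 to 71548205 of mm10) is a long gene. The testis forms *Cox6b2* and *Cox7b2* were the alternative forms of complex IV with levels of at least 100, at 174 and 119. In which of the 4 groups their RNA arose is not shown by the pooled level.

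**Figure D4:**
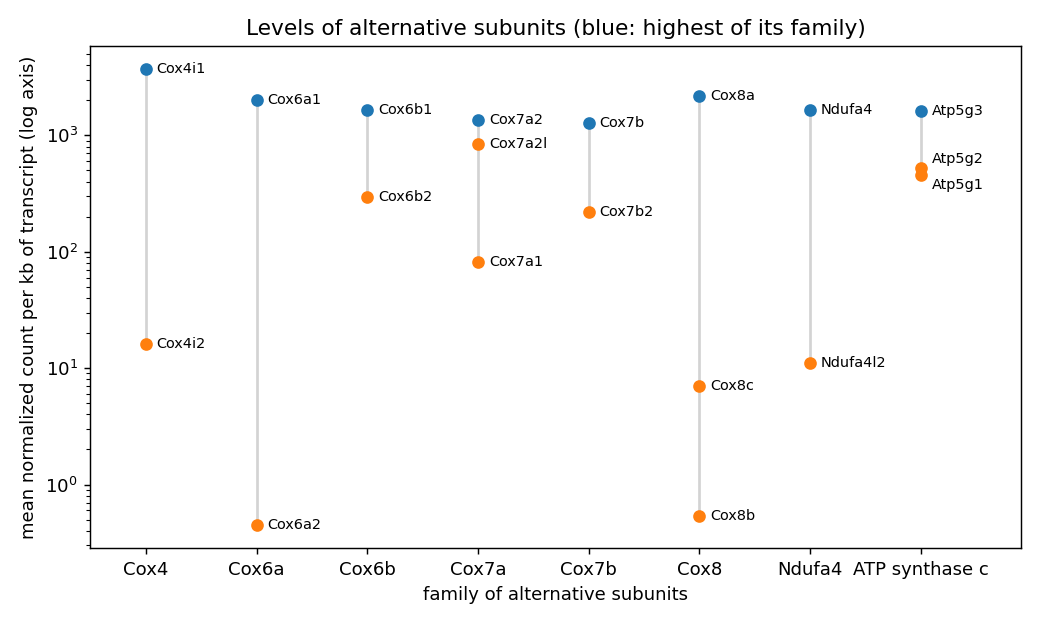
Level per kb of transcript (vertical axis, log scale) of the members of 8 families of alternative subunits, 1 point per gene, with the highest of each family in blue. *Cox6a2* (0.445) and *Cox8b* (0.539) are the lowest points, and the distance to the highest form is 233-fold for *Cox4i2*, 309.7-fold for *Cox8c*, 149.8-fold for *Ndufa4l2*, 5.52-fold for *Cox6b2*, 5.83-fold for *Cox7b2* and 3.08-fold for *Atp5g2*.

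Complex V, ATP synthase, had 17 genes, all with levels of at least 100 and a median of 874 per kb of transcript. *Atp5b*, which encodes the catalytic beta subunit, had the highest level of all 90 genes on each scale, at 7311 and at 3816 per kb of transcript (chromosome 10, 128083307 to 128090388 of mm10). *Atp5a1*, the alpha subunit of the same catalytic F1 head, followed at 1824 and *Atp5g3*, a form of subunit c, at 1607 per kb of transcript. *Atp5c1*, the gamma subunit of the rotating shaft, was at 1582, while the small F1 subunits *Atp5d* and *Atp5e* stood at 874 and 615. The 5 F1 genes had a median of 1582 per kb of transcript, the 4 genes of the peripheral stalk, which holds the head still, one of 1051, and the 5 small membrane subunits one of 605. Per kb of gene span the F1 genes (114.1) stood just below the stalk genes (120.5), and per kb of the span of the entry's own transcript above them (232 against 120.3). The stalk genes lay within 1.74-fold of each other, with *Atp5pb* highest at 1306 and *Atp5h* lowest at 749.8 per kb of transcript. The ring of subunit c is encoded by 3 genes whose mature proteins are known to be the same. *Atp5g3* stood 3.08-fold above *Atp5g2* (522) and 3.56-fold above *Atp5g1* (451.7), the lowest gene of the complex, per kb of transcript. Per kb of span *Atp5g1* (92.8) was above *Atp5g2* (46.7), and *Atp5md* (30.5) was the lowest gene of the complex. Of the 80-base stretches of the *Atp5g2* and *Atp5g1* transcripts, 86.8% and 59.0% also occur in transcripts of other genes, against none for *Atp5g3*, so the levels of *Atp5g2* and *Atp5g1* are uncertain and may be too low or too high. *Atp5l*, at 547 per kb of transcript, was the other gene of the 90 with over 50% of its stretches shared (63.0%, with 7 other genes).

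Levels of a larger set of genes can be affected in the same way. In all, 23 of the 90 transcripts shared at least 1 stretch of 80 bases with another gene and 67 shared none. The genes without a shared stretch had a median of 620.5 per kb of transcript, close to that of all 90. Another annotated gene overlapped 30 of the 90 genes, 28 on the opposite strand and 6 on the same strand, and the 60 without an overlap had a median of 609 per kb of transcript.

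Other genes of mitochondrial energy metabolism were taken from lists of known function. The TCA cycle, which feeds the chain, had all 13 genes at a level of 100 or more. Its median was close to that of the chain per kb of transcript (627), but higher with no division by length (1682 against 531). Its highest genes were *Suclg2* (1718) and *Mdh2* (1473), and its lowest were *Dld* (506) and *Suclg1* (510.3). Per kb of span *Mdh2* was the highest of the 13 (183), but *Suclg2*, a long gene, was the lowest (23.5). Glycolysis had a median of 713 per kb of transcript over 13 of 15 listed genes, led by *Pkm* at 5616, *Aldoa* at 2049 and *Ldha* at 1844, and its lowest were *Pfkm* at 211 and *Hk1* at 276. *Pkm* was above every respiratory chain gene per kb of transcript, but below *Atp5b* per kb of span (503 against 1032). For *Gapdh*, *Pgk1* and *Eno1*, 79.9%, 67.4% and 64.1% of the stretches of a read's length also occur in other genes, so their levels are uncertain.

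Per kb of transcript, the genes that build the complexes were lower than the subunits they serve. Of 32 listed assembly factors of complexes II to V, 31 were found. Their median was 212 per kb of transcript, against 589, 943, 907 and 874 for the genes of complexes II, III, IV and V. With no division by length it was 260, against 825, 605, 776 and 641 in the same sequence of complexes. The copper chaperone *Cox17* (945.1), the haem farnesyltransferase *Cox10* (909.8) and *Uqcc1* (808) were highest per kb of transcript, and *Sdhaf1* (29.5) and *Lyrm7* (36.1) lowest. Per kb of span *Cox10* (22.7) and *Uqcc1* (25.5) stood below the median of this list (36.3). A list of 14 genes held those of cytochrome c and of ubiquinone synthesis and also *Cyc1*, whose cytochrome c1 is part of complex III. Its median was 190.3 per kb of transcript. *Pdss2* (2508), *Pdss1* (1047) and *Cyc1* (677) were highest, and *Coq8a* (43.5) and *Cycs* (27.6) were lowest. Per kb of span *Cyc1* was the highest of the list (374), with *Pdss1* at 37.5 and *Pdss2* at 14.9. *Cycs* encodes the somatic cytochrome c that carries electrons between complexes III and IV, and 25.9% of its stretches occur in other genes. *Cyct*, the testis form, stood above *Cycs* at 226 per kb of transcript. Per kb of span *Cyct* and *Cycs* were close, at 22.7 and 21.5. With no division by length their levels were 148 and 86.3. Genes that copy and express the mitochondrial genome had a median of 189.7 per kb of transcript over 10 of 12 listed. *Lrpprc* (1187), *Tfb1m* (445) and *Ssbp1* (232) were highest and *Tefm* (101) and *Twnk* (115) lowest. Per kb of span *Ssbp1* was the highest of the list (97.9) and *Tfb1m* the lowest (16.2). The genes of this list have long transcripts, and with no division by length their median (562) was above that of the 90 genes (531).

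Nuclear factors known to act on respiratory chain genes were present. *Nrf1* stood at 1561 per kb of transcript, *Sp1* at 633, *Gabpb1* at 573 and *Gabpa*, an ETS factor, at 515. *Yy1* was at 431. *Ppargc1a*, the coactivator that drives mitochondrial biogenesis in brown fat and muscle, was lowest of the 9 at 4.57, below its relatives *Ppargc1b* at 188 and *Pprc1* at 558. Striated muscle markers were near absent for *Myog* and *Ckm*, at 0.132 and 0.351 per kb of transcript, and reached 143 for *Actn2*, with a median of 7.03 over 6 genes.

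Promoter windows were searched on both strands for letters typical of these factors. The 73 genes had 78 windows, since 5 genes have more than 1 start site, and all measured genes had 18833. GCGCA and GCGC with 1 base of any kind between them, typical of NRF1, occurred in 19 of the 78 windows (24.4%) against 7.14% of all windows. AANATGGCG, typical of YY1, occurred in 10 (12.8%) against 3.42%, and in the 250 bases before the start alone in 2 (2.56%) against 1.47%. CCGGAAGT, typical of ETS factors such as GABPA, occurred in 5 (6.41%) against 5.64%, GGGCGG, typical of SP factors, in 35 (44.9%) against 51.2%, and TATAAA, the TATA box, in 9 (11.5%) against 9.93%. Matches of different motifs may overlap. All of these motifs but TATAAA contain a CpG, and windows rich in CpG, as defined below, were commoner among these genes (78.2% against 50.3%). The windows of all genes were not matched for CpG, and its part in the shares was not tested. A match is a run of letters and does not show that a factor binds. The level differed little between genes with and without NRF1 letters, with medians of 700.3 and 657.5 per kb of transcript.

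Examples of the NRF1 letters are shown for the 4 highest genes per kb of transcript that hold them in the 250 bases before the start, as 30 bases in the direction of the gene with the match in capitals. They lie at chr5:115349101-115349130 for *Cox6a1*, at chr2:10080433-10080462 for *Atp5c1*, at chr13:74350319-74350348 for *Sdha* and at chr13:73328483-73328512 for *Ndufs6*, all on the minus strand of GRCm38.p6. *Atp5c1* has another start site further upstream, and its window holds no match.
Cox6a1: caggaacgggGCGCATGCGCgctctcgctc
Atp5c1: cgcctgagctcccGCGCACGCGCactgagt
Sdha: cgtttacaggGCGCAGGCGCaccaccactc
Ndufs6: ccgccgactgctgtGCGCCTGCGCcggcac
The YY1 letters are shown for the 2 genes that hold them before a start. In both it is a downstream start site, so that the stretch lies inside the gene. They are *Ndufa7* (chr17:33824615-33824644, plus strand) and *Atp5j* (chr16:84835046-84835075, minus strand).
Ndufa7: cggagcggaaggAATATGGCGtccgctact
Atp5j: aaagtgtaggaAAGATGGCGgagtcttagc
These 6 genes belong to complexes I, II, IV and V, and their levels ran from 760.3 (*Ndufs6*) to 2305 (*Ndufa7*) per kb of transcript.

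**Figure D5:**
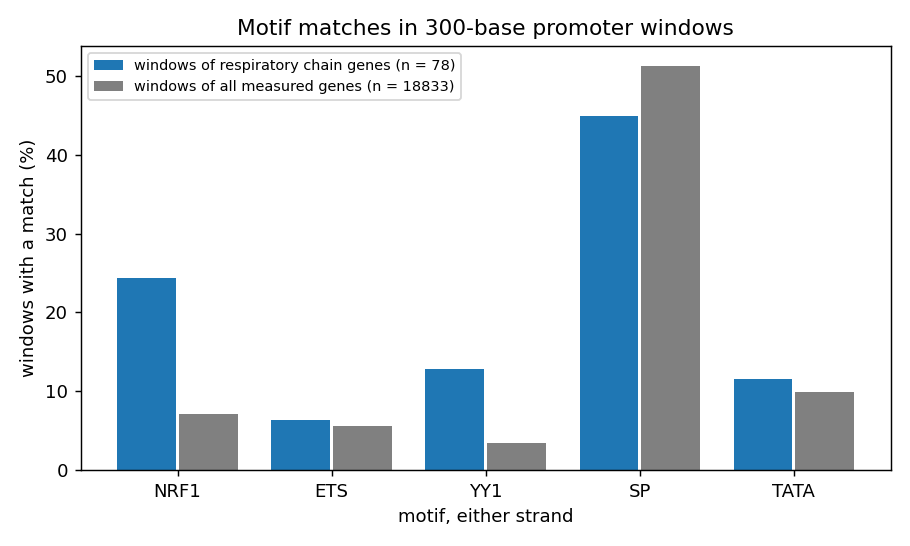
Share of promoter windows of 300 bases with a match on either strand (vertical axis, percent) for 5 motifs (horizontal axis), in 78 windows of respiratory chain genes and in 18833 windows of all measured genes. The bars for NRF1 stand at 24.4% and 7.14%, those for YY1 at 12.8% and 3.42%, and the other pairs lie closer together.

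Most respiratory chain genes had promoters rich in CpG. A window was counted as rich when its ratio of observed to expected CpG was over 0.6 and its content of G and C over 50%. This held for 61 of the 78 windows (78.2%), against 50.3% of all windows, with a median of 19.5 CpGs per window against 16. Alternative forms of complex IV with a window were *Cox6b2*, *Cox7a1*, *Cox7b2* and *Cox8b*, and none of their 4 windows was rich, with 10, 7, 10 and 2 CpGs. Of the other 74 windows 61 (82.4%) were rich. Respiratory chain genes without a rich window had the lower median, but the gap was far narrower than over all genes. Genes with at least 1 rich window (56) had a median of 731 per kb of transcript and the other 17 one of 547, while over all genes the medians were 215 and 5.29. The low alternative forms *Cox4i2*, *Cox6a2*, *Cox8c* and *Ndufa4l2* had no window and are in neither group. *Cox7b*, at 1285 per kb of transcript, had 5 CpGs in its window, fewer than the 10 of its lower alternative form *Cox7b2*.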

How the data were processed

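Per the labels and the methods of the study, nuclear RNA depleted of rRNA was sequenced as 80-base read pairs from directional libraries of 16 ESC cultures in 4 groups. The authors removed rRNA reads with Bowtie2, aligned the others to mm10 with STAR, removed PCR duplicates with SAMtools and scaled the counts with DESeq2 on their nonredundant gene set. Versions and the counting of introns and strand are not given in the sources used here. The deposited signal is 1 mean normalized count per entry, averaged by the authors over all libraries, with equal values in all 3 tables for the 20633 entries. The other 6 columns of each table hold the authors' own comparisons (log2 fold changes in a moderated and an unmoderated form, standard error, statistic, p and adjusted p) and were not used. Nothing labelled by library was used, so no test between groups was made, the spread between replicates is unknown, and no counting interval is given.

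Symbols were matched for 20560 entries, 20446 through RefSeq (GRCm38.p6) and 114 through GENCODE, and the entry with the highest mean was kept for each. Transcript lengths came from GENCODE transcripts matched to the entry for all 90 genes. Stretches of 80 bases were compared with the transcripts of all genes that do not overlap the gene. The genes and lists were chosen with earlier results of these data known. Named were, per complex, the 3 highest and 2 lowest genes per kb of transcript, all alternative forms, all core subunits of complexes I to III, all genes with a level under 100 and, of other lists, the 3 highest and 2 lowest genes; further genes were named after their values were seen, and some genes that the rule takes in are not reported here. Calculations used pandas 2.3.3 and numpy 2.4.6 in Python 3.11.15, rank correlations scipy 1.17.1 and figures matplotlib 3.10.9.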

Additional observations from a re-analysis of the deposited data

How the results depend on the processing

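No paired analysis was possible because the levels are pooled over all libraries, and leaving out a replicate was not run for the same reason. A comparison of protein sequences was not made. A minimum level of 1000 in place of 100 left 23 of 82 genes. Per kb of span, the medians were 57.4 for complex I, 29.8 for its assembly factors, 69.3 for complex II, 107 for III, 98.9 for IV and 112 for V, a change of unit that also puts V above III and IV, and II above I. On that scale the ratio of *Cox4i1* to *Cox4i2* was 445, of *Cox7a2* to *Cox7a1* 3.20, of *Cox7b* to *Cox7b2* 168, of *Cox8a* to *Cox8c* 186 and of *Atp5g3* to *Atp5g2* 6.20, while *Cox6b1* to *Cox6b2* (0.830) and *Cox7a2* to *Cox7a2l* (0.722) turned around. Per kb of the span of the entry's own transcript, a setting chosen after seeing the data, the medians were 56.4, 29.5, 67.6, 106.5, 129 and 112.5 in the same sequence of complexes, which puts IV highest. The ratios there were 434 for *Cox4i1* to *Cox4i2*, 2.58 for *Cox7a2* to *Cox7a2l*, 168 for *Cox7b* to *Cox7b2*, 183 for *Cox8a* to *Cox8c*, 29.8 for *Ndufa4* to *Ndufa4l2* and 8.74 for *Atp5g3* to *Atp5g2*, and *Cox6b1* to *Cox6b2* (0.773) turned around. With no division by length the ratio of *Cox7a2* to *Cox7a2l* turned around too (0.941), and those of *Cox7a2* to *Cox7a1* (27.8), *Cox7b* to *Cox7b2* (10.8) and *Ndufa4* to *Ndufa4l2* (97.8) moved. In the 250 bases before the start alone, the ETS letters were in 3.85% of windows, below the 4.12% of all windows. The YY1 letters were there in 2.56% against 1.47%. Without the 23 genes that share stretches with another gene, the median per kb of transcript was 298 for complex IV and 1442 for complex V. This setting was chosen after seeing the data, and it leaves out none of the alternative forms of complex IV. From complex V it leaves out both lower forms of subunit c, all genes of the peripheral stalk, *Atp5j2*, *Atp5l* and *Atp5md*. The median percentile of the 90 genes stayed between 85.4 and 89.98 under the 5 alternatives tried, all of which divide by a length. With no division by length it was 66.1. Counts over genes stayed within 1.5-fold in all settings but the minimum of 1000. This bound is loose for a count above a median. With no division by length, 78 of the 90 genes were above the median of all genes. Only 53 were above that of genes with a level of at least 10, so among those genes they stood much less far above the middle. Depth per library is unknown, so it cannot be said how much of the lowest levels is counting error.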
